A study of Mus musculus with 35 samples.

Results

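Cystatins are inhibitors of papain-family cysteine proteases, and 4 of their genes were described here in CD45+ microglia of the mouse brain: Cst3, Cst7, Cstb and Cst6. These 4 were taken by name from the 55401 genes counted, and 3 of them were among the 17612 genes that passed the low-count filter, the exception being Cst6. They were chosen because Cst3 climbed in the ranking of genes with age, so their levels across age are a description and carry no test. The mice were untreated wild-type C57BL/6 males and females, and cells were collected from digested whole brain by immunopanning, in which suspended cells attach to a dish coated with antibody against CD45. Each mouse gave 1 library. The groups were postnatal day (P) 6 with 4 females and 6 males, P15 with 6 females and 6 males, and 8 weeks with 6 females and 6 males. P6 female 6 was left out, and its values are given separately. The methods describe removing a mouse that stood apart without naming it, and the published sample lists leave this one out. CD45 is carried by all leukocytes, so the selection was not specific to microglia.

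Cysteine cathepsins and legumain are proteases of lysosomes and endosomes, where they degrade engulfed and recycled protein and trim antigens for presentation. Cystatins block the active site of such proteases, and the families differ in where they act. Type 2 cystatins carry a signal peptide and enter the secretory pathway, type 1 cystatins (stefins) stay in the cytosol, and the type 3 family includes the large plasma kininogens. Microglia are known for a high content of lysosomal proteases and for abundant Cst3, which encodes the secreted cystatin C that is also made by astrocytes and choroid plexus.

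Of the 4 genes, Cst3 and Cst7 lie in the cystatin cluster of chromosome 2 (GRCm38, GENCODE M21). Cst3 (ENSMUSG00000027447) spans chr2:148871722-148875692 on the minus strand, and Cst7 (ENSMUSG00000068129) spans chr2:150570415-150578944 on the plus strand. Cstb (ENSMUSG00000005054) is at chr10:78425669-78427622 on the plus strand and Cst6 (ENSMUSG00000024846) at chr19:5344705-5349574 on the minus strand. All are protein-coding, and no other annotated gene overlapped any of them. The sequences just before the RefSeq start sites (GRCm38.p6) of Cst3 and Cst7 are shown because these genes had different age profiles. They are at chr2:148875513-148875762 on the minus strand for Cst3 and chr2:150570165-150570414 on the plus strand for Cst7. The genes are not adjacent, and Cst10 lies between them. Capitals mark GAGGAA and GGAAGT, which share the GGAA core bound by ETS factors such as the myeloid regulator encoded by Spi1, and GGGCGG, the GC box bound by Sp1.
Cst3: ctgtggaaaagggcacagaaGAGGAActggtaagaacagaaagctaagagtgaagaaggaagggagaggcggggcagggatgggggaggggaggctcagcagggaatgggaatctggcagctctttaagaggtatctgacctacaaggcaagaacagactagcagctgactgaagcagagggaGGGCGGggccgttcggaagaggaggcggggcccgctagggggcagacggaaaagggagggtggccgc
Cst7: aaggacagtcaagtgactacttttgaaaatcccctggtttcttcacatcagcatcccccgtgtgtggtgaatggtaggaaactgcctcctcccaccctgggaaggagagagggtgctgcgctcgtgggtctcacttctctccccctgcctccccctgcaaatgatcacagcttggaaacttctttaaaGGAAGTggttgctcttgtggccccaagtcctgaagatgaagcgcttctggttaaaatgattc

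Both strands were searched, and no marked motif overlapped another. GENCODE M21 places the start of Cst3 further upstream than RefSeq, so the part of its sequence nearest the RefSeq start, with the GGGCGG, lies inside the span given above. Counted from the RefSeq start site, Cst3 held GAGGAA at -230 to -225 and GGGCGG at -67 to -62, and Cst7 held GGAAGT at -62 to -57. Over 32817 promoters of the same length, 23.3% held GAGGAA, 19.7% held GGAAGT and 32.7% held GGGCGG. The motifs were picked with both sequences in view, and a match of letters is not a measured binding site.

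The libraries held 23316107 to 38965078 fragments assigned to genes. Levels are given as CPM, the counts scaled to library size and by TMM, and the floor of 3 counts came to 0.0722 to 0.137 CPM depending on the mouse. All 8 microglia markers listed passed the filter, and their mean log2 CPM was 9.34 to 10.2 in the P6 mice, 10.3 to 11.4 in the P15 mice and 10.9 to 11.4 in the 8-week mice. Markers of other cells were present and also moved with age. The summed CPM of 8 astrocyte markers (led by Slc1a2) was 502 to 1285 at P6, 935 to 7683 at P15 and 1977 to 5789 at 8 weeks. The summed CPM of 9 neural progenitor markers (led by Tubb2b) was 661 to 2037, 124 to 845 and 89.0 to 206 at the same ages, and that of 6 neuron markers (led by Tubb3) was 276 to 926, 89.5 to 693 and 48.4 to 212. The summed CPM of 5 choroid plexus markers was 9.34 to 181 at P6, 2.61 to 136 at P15 and 3.07 to 156 at 8 weeks. Ttr led this list, and Kcnj13 did not pass the filter. The summed CPM of 9 monocyte and macrophage markers (led by Mrc1) was 724 to 1577, 289 to 1031 and 366 to 719, that of 6 endothelial markers (led by Pecam1) was 37.2 to 101, 78.8 to 228 and 112 to 299, and that of 8 oligodendrocyte lineage markers (led by Mbp) was 283 to 729, 824 to 3384 and 355 to 1662.

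Cst3 was higher at each later age and had by far the highest level of the 4 genes. At P6 its lowest, median and highest CPM were 1747, 2285 and 3106 (mean 2385 ± 508, SD, n = 10). At P15 they were 5530, 9646 and 13650 (9801 ± 2386, n = 12), and at 8 weeks 11017, 13949 and 22603 (14760 ± 3238, n = 12). The lowest P15 mouse was above the highest P6 mouse, whereas the ranges at P15 and 8 weeks overlapped. The log2FC was 2.05 (SE 0.141) for P15 against P6, 0.61 (SE 0.124) for 8 weeks against P15 and 2.65 (SE 0.145) for 8 weeks against P6, which is a 6.29-fold difference (95% interval of log2FC 2.36 to 2.95). In bulk RNA, fewer cells of a type and less RNA per cell cannot be told apart.

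**Figure D1:**
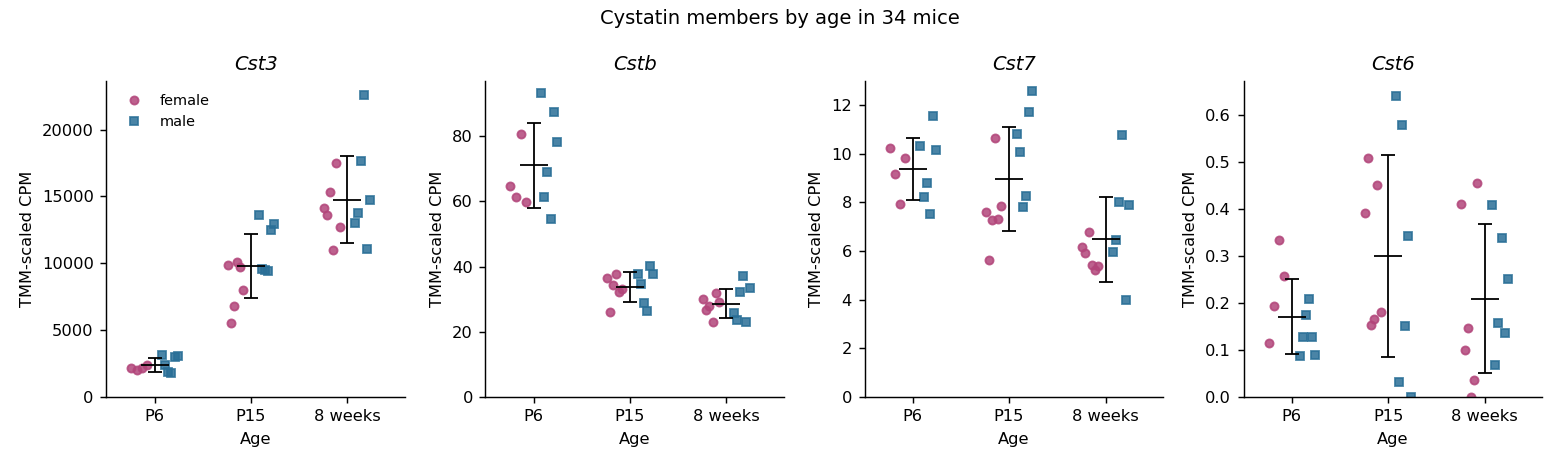
Each panel plots the TMM-scaled CPM of 1 gene (y axis, own scale from 0) by age for 34 mice, with circles for females, squares for males and bars for the mean and SD at each age. Cst3 climbs from a mean of 2385 CPM at P6 to 14760 CPM at 8 weeks, Cstb drops from 71.1 to 28.6 CPM, Cst7 is 9.38 CPM at P6 and 6.49 CPM at 8 weeks, and Cst6 reaches at most 0.641 CPM.

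The share of all counted fragments that came from Cst3 was 0.251% on average at P6 (range 0.195 to 0.312), 0.949% at P15 (0.608 to 1.33) and 1.42% at 8 weeks (1.09 to 1.98). Levels were then compared between genes per kilobase of exon (RPKM). By mean RPKM, Cst3 was number 11 of 17600 genes in the P6 mice, number 3 in the P15 mice and number 2 in the 8-week mice. In single mice its rank was 8 to 12 at P6, 2 or 3 at P15 and 1 or 2 at 8 weeks. The entry ahead of Cst3 at 8 weeks was Gm23935, which is annotated as a miRNA, and at P15 CT010467.1, annotated as rRNA, was ahead as well. Among the 14787 protein-coding genes Cst3 ranked 9 at P6 and 1 at P15 and at 8 weeks. Its mean was 11659 RPKM at 8 weeks.

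Set against the microglia markers in the same mouse, Cst3 was above their mean by 1.33 to 1.69 log2 units at P6 (median 1.58), 1.88 to 3.43 at P15 (median 2.19) and 2.15 to 3.19 at 8 weeks (median 2.55). The P6 mice did not overlap either later age, and the highest P15 value was that of P15 male 1, without which the range ended at 2.29. Set against the astrocyte markers the same difference was 4.36 to 6.27 log2 units at P6, 3.74 to 7.51 at P15 and 5.22 to 7.30 at 8 weeks, and the ranges overlapped. With the mean of the microglia markers as a covariate the log2FC of Cst3 for 8 weeks against P6 was 1.88, and with that of neuron and progenitor markers it was 1.92. With the astrocyte markers, a covariate chosen after seeing the data, it was 2.88. The log2FC for 8 weeks against P15 was 0.18 with the neuron and progenitor markers as a covariate. The part of these markers in the difference was not tested beyond these fits.

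Cstb, the cytosolic cystatin B, was lower at each later age, opposite to Cst3. Its lowest, median and highest CPM were 54.7, 66.8 and 93.5 at P6 (mean 71.1 ± 13.1, n = 10), 26.0, 34.5 and 40.2 at P15 (33.8 ± 4.66, n = 12), and 22.8, 28.6 and 37.0 at 8 weeks (28.6 ± 4.51, n = 12). Every P6 mouse was above every later mouse, and the P15 and 8-week ranges overlapped. The log2FC was -1.06 (SE 0.101) for P15 against P6, -0.24 (SE 0.0958) for 8 weeks against P15 and -1.29 (SE 0.101) for 8 weeks against P6. The last is a 2.45-fold lower level. With microglia markers as a covariate the log2FC was -1.49 for P15 against P6 and -1.80 for 8 weeks against P6. With astrocyte markers, chosen after seeing the data, these were -0.79 and -1.05. Neuron and progenitor markers gave -0.52 for 8 weeks against P15 and -1.78 for 8 weeks against P6. Per length Cstb ranked 317 at P6, 780 at P15 and 910 at 8 weeks.

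Cst7, the endolysosomal cystatin F of immune cells and an inhibitor of cathepsin C, had its lowest mean at 8 weeks. Its lowest, median and highest CPM were 7.54, 9.51 and 11.6 at P6 (mean 9.38 ± 1.26, n = 10), 5.63, 8.05 and 12.6 at P15 (8.97 ± 2.13, n = 12), and 3.99, 6.06 and 10.8 at 8 weeks (6.49 ± 1.75, n = 12). All 3 ranges overlapped. The log2FC was -0.08 (SE 0.128) for P15 against P6, a difference smaller than its error, -0.46 (SE 0.122) for 8 weeks against P15 and -0.54 (SE 0.128) for 8 weeks against P6. Behind these values were between 117 and 382 counts per mouse. The values moved with marker covariates. For P15 against P6 the log2FC was -0.70 (SE 0.280) with microglia markers, -0.38 (SE 0.148) with neuron and progenitor markers and 0.31 (SE 0.181) with astrocyte markers, so its direction depended on the covariate. It was -1.25, -1.24 and -0.18 for 8 weeks against P6 in the same order, and for 8 weeks against P15 it was -0.55, -0.863 and -0.49.

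Cst6, the secreted cystatin M/E that inhibits legumain and cathepsin L and is best known from skin, was barely detected. It had 3 to 12 counts per mouse at P6, 0 to 19 at P15 and 0 to 16 at 8 weeks. The mean CPM at these ages was 0.171 ± 0.0793 (n = 10), 0.300 ± 0.215 (n = 12) and 0.209 ± 0.159 (n = 12). More than 3 counts were found in 8 of 10, 10 of 12 and 8 of 12 mice. It did not pass the filter, and no difference between ages was tested.

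Of the 3 filtered members, 1 (Cst3) was higher at P15 than at P6 without overlap, as were 5.25% of all genes, and 1 (Cstb) was lower, as were 7.72%. Between 8 weeks and P6 the same 2 genes were separate, with 14.8% of all genes higher and 14.8% lower without overlap. Between 8 weeks and P15 the count was 0 of 3, where 1.65% of all genes were higher and 1.72% lower without overlap. Since the members were chosen on these levels, nothing is read from the counts. At 8 weeks Cst3 made up 99.5 ± 0.0479% of the summed RPKM of all 27 cystatin superfamily genes measured, compared with 92.8 ± 1.14% at P6 and 99.1 ± 0.204% at P15. The summed RPKM of the other cystatins, most of it Cstb, was 143 ± 21.9 at P6, 70.5 ± 10.4 at P15 and 55.9 ± 9.27 at 8 weeks.

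The left-out mouse, P6 female 6, had summed CPM of 3521 for the microglia markers, 2419 for the astrocyte markers and 1528 for the neuron markers. With TMM over all 35 mice its Cst3 level was 1196 CPM, below the other P6 mice, with Cstb at 30.3 CPM and Cst7 at 3.44 CPM. Including it changed the log2FC of Cst7 for P15 against P6 to 0.0086.

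The proteases that cystatins inhibit moved in both directions. The list held 11 cysteine proteases, all of which passed the filter. A gene was called over 2-fold when edgeR's glmTreat gave a Benjamini-Hochberg adjusted p (FDR over all 17612 genes) below 0.05. For 8 weeks against P6, 4 of the 11 were higher over 2-fold and 1 was lower, and over all genes 11.5% were higher and 12.4% lower. The median log2FC of the list was 0.51, that of all genes 0.04. Without the fold threshold (glmQLFTest) 7 were higher and 3 lower, compared with 37.8% and 36.6% of all genes. With neuron and progenitor or microglia markers as a covariate, 0 were higher and 2 lower over 2-fold.

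The 4 higher ones were Ctss, Ctsh, Ctso and Ctsw. Ctss, cathepsin S, which processes the invariant chain of MHC class II, rose from 1063 ± 232 CPM at P6 to 2486 ± 658 at P15 and 4132 ± 583 at 8 weeks. Its log2FC for 8 weeks against P6 was 2.01 (SE 0.141, edgeR FDR = 4.88e-14), and no 8-week mouse overlapped P6. Ctsh, an aminopeptidase cathepsin, had a log2FC of 1.80 (SE 0.135), and Ctso had 1.56 (SE 0.0992).

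Ctsb and Ctsl, which like Ctss are lysosomal cysteine endopeptidases, fell. Ctsb went from 5298 ± 911 CPM at P6 to 3058 ± 603 at P15 and 2919 ± 435 at 8 weeks, a log2FC of -0.84 (SE 0.107, edgeR FDR = 2.36e-08) for 8 weeks against P6. The log2FC of Ctsl for the same ages was -0.89 (SE 0.107), and for both genes the ranges at P6 and 8 weeks did not overlap. Ctsk, a collagen-degrading cathepsin of osteoclasts with at most 5.22 CPM, was the gene lower over 2-fold, at -1.71 (SE 0.233).

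Lgmn, legumain, and Ctsc, which activates granule serine proteases, had log2FC of 0.34 (SE 0.125) and 0.56 (SE 0.135) for 8 weeks against P6. Ctsc did not pass the test between P6 and P15 (log2FC -0.13, SE 0.134) and rose by 0.70 (SE 0.127) from P15 to 8 weeks, the interval in which Cst7 was -0.46. Ctsf rose by 1.08 (SE 0.114) from P6 to P15, and its log2FC from P15 to 8 weeks was -0.57 (SE 0.105). Ctsz was at 1084 CPM at P6 and 1085 CPM at 8 weeks, a log2FC of 0.01 (SE 0.120).

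**Figure D2:**
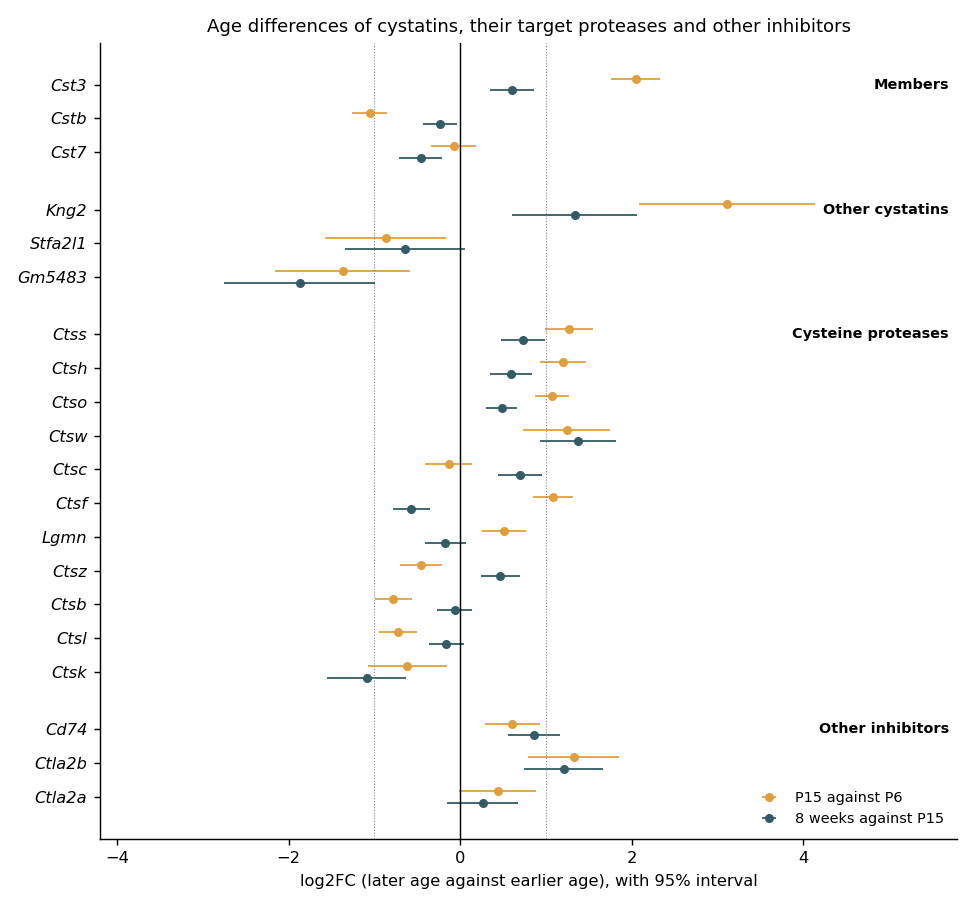
Points are the log2FC of the later against the earlier age (x axis) with 95% intervals for each gene (y axis), in orange for P15 against P6 and in blue for 8 weeks against P15, and dotted lines mark a 2-fold difference. Cst3 at 2.05 lies to the right with Ctss, Ctsh and Ctso for P15 against P6, while Cstb, Ctsb and Ctsl lie to the left. Of the tested stefins of chromosome 16 only Stfa2l1 and Gm5483 are drawn, and these also have few counts at 8 weeks.

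For P15 against P6, 0 of the 11 proteases passed the 2-fold threshold by glmTreat in either direction, compared with 4.87% of all genes higher and 4.85% lower. By glmQLFTest without the threshold 6 were higher and 4 lower, as were 30.4% and 31.4% of all genes. For 8 weeks against P15, 0 passed by glmTreat, as compared with 1.2% higher and 3.07% lower of all genes, and 6 were higher and 2 lower by glmQLFTest, as were 24.0% and 23.9% of all genes. An unadjusted p below 0.05 gave the same counts as the FDR in both. DESeq2 and limma-voom also called 0 proteases over 2-fold in both. For P15 against P6 edgeR called 1 higher without P15 male 1 and 1 higher with all 35 mice. With the microglia covariate it called 3 lower, and with the astrocyte covariate, chosen after seeing the data, 3 higher.

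Per kilobase of union exon length, the level of Cst3 was below the summed level of the proteases at P6 and above it at P15 and 8 weeks. The summed RPKM of the 11 proteases was 4098 ± 778 at P6, 5111 ± 1158 at P15 and 6325 ± 892 at 8 weeks, while Cst3 had 1884 ± 401, 7742 ± 1885 and 11659 ± 2558 RPKM. The ratio of Cst3 to the proteases within a mouse was 0.459 ± 0.0342 at P6 (lowest 0.423, median 0.453, highest 0.537). At P15 it was 1.54 ± 0.426 (1.27, 1.44 and 2.86) and at 8 weeks 1.83 ± 0.209 (1.55, 1.80 and 2.22). The ratio was below 1 in every P6 mouse and above 1 in every later mouse. With the longest transcript as length, an alternative chosen after seeing the data, it was 0.588, 2.004 and 2.447 on average at P6, P15 and 8 weeks. From CPM without length, also chosen after seeing the data, it was 0.188, 0.785 and 1.04, with a range of 0.644 to 1.39 at P15 and 0.885 to 1.25 at 8 weeks. The position relative to 1 at the later ages thus depended on the length used, whereas no P6 mouse overlapped a later mouse under any of the 3. The P15 and 8-week ranges overlapped. Without P15 male 1, at 2.86, the P15 ratio was 1.42 ± 0.0978 (n = 11) with a highest value of 1.56, and the ranges still met at their ends.

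P15 male 1 stood apart from the other P15 mice in this ratio. Its Cst3 level, 13650 CPM, was the highest at P15, and its microglia markers had the lowest mean log2 CPM at that age, 10.3. Its oligodendrocyte lineage markers had the highest summed CPM at P15, 3384 against 2425 in the next mouse, and its monocyte and macrophage markers the lowest, 289 against 646. Its choroid plexus, neuron and progenitor markers were also the highest at P15, at 136, 693 and 845 summed CPM. Its astrocyte markers summed to 5332 CPM, below only the 7683 of P15 female 2. The part of this composition in the ratio was not tested. The log2 difference of Cst3 and Ctss was 3.40 in this mouse and between 1.65 and 2.10 in the other 11. Without it the log2FC of Cst3 for P15 against P6 lay within the range of 1.98 to 2.07 obtained by leaving out single mice.

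**Figure D3:**
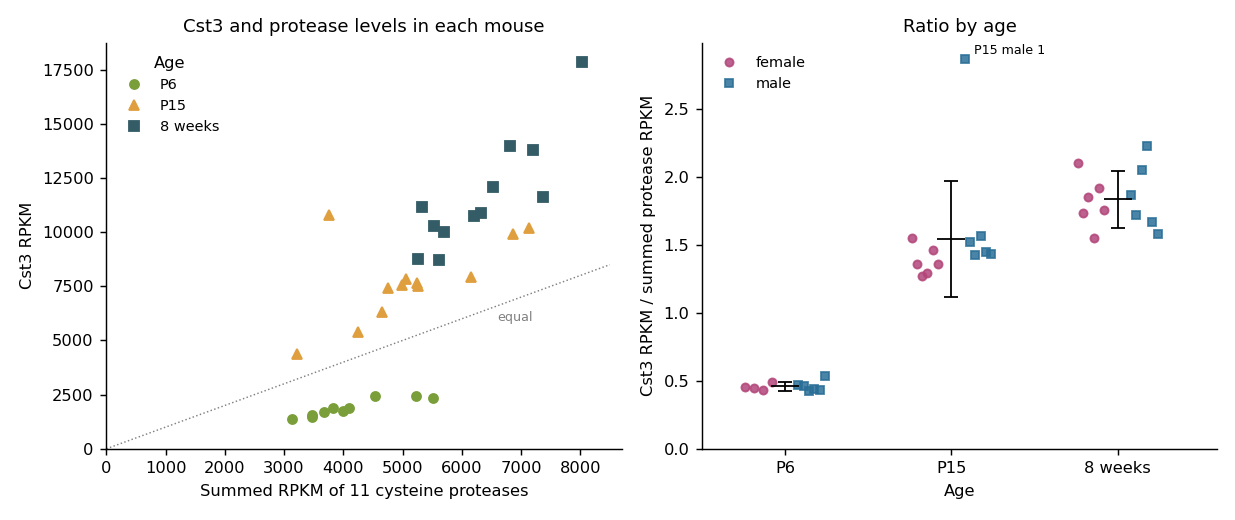
The left panel plots Cst3 RPKM (y axis) against the summed RPKM of 11 cysteine proteases (x axis) in each of 34 mice, with a dotted line where both are equal. The right panel plots their ratio by age, with circles for females, squares for males and bars for mean and SD. All P6 mice lie below the line (ratios 0.423 to 0.537) and all later mice above it, with P15 male 1 at 2.86.

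Of the other 23 cystatin superfamily genes measured, 7 passed the filter. They were 6 stefins of chromosome 16 and Kng2. For 8 weeks against P6, 1 of the 7 (Kng2) was higher and 5 were lower over 2-fold, with 11.5% and 12.4% of all genes for comparison. For P15 against P6, 1 was higher and 2 were lower, where 4.87% and 4.85% of all genes were. For 8 weeks against P15, 0 were higher and 4 were lower, where 1.2% and 3.07% of all genes were, and by glmQLFTest at an unadjusted p below 0.05 1 was higher and 5 were lower, where 27.7% and 27.0% of all genes were. These genes are near the floor, and several passed the filter only through the age at which they were high, such as Stfa3 and BC100530 at P6 and Kng2 at 8 weeks. The filter thus set the direction of such calls, and nothing is read from the counts or their shares. A filter of at least 10 counts in every mouse left none of the 7 to test.

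The 10 stefin genes lie within 0.335 Mb, chr16:36119946-36455392. They are close paralogs of the cytosolic stefin A family, known from neutrophils and epithelia, so reads can be shared among them and single genes are uncertain. Their summed CPM was 9.93 ± 5.48 at P6 (lowest 6.19, median 8.81, highest 24.9), 3.25 ± 1.98 at P15 (1.62, 2.55 and 8.12) and 0.669 ± 0.461 at 8 weeks (0.135, 0.570 and 1.501). No 8-week mouse reached the lowest P15 mouse. BC100530 and Stfa3 had 0 counts in all 12 mice at 8 weeks. Against the floor of 3 counts per library, their mean P6 level was at least 19.1-fold higher for BC100530 and at least 9.83-fold higher for Stfa3. Stfa2l1 was still counted in every 8-week mouse, with 3 to 23 counts.

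The summed CPM of 9 neutrophil markers (led by S100a9) was 19.0 to 86.9 at P6, 17.7 to 116 at P15 and 31.3 to 206 at 8 weeks. For P15 against P6, 2 of the 7 filtered markers were higher by glmQLFTest and 0 lower (30.4% and 31.4% of all genes), and for 8 weeks against P6, 3 were higher and 0 lower (37.8% and 36.6%). For 8 weeks against P15, 3 were higher and 4 lower (24.0% and 23.9%). In that comparison S100a8, S100a9 and Retnlg were higher (edgeR glmQLFTest FDR = 0.000133, 6.69e-05 and 0.0343) and the granule protein genes Camp, Ngp, Ltf and Mpo were lower, with log2FC of -1.53, -1.58, -1.50 and -1.97. These genes were named after their values were seen. Some mice were highest of their age in both stefins and neutrophil markers. P6 male 4 had 24.9 CPM of stefins and 86.9 CPM of neutrophil markers, each the highest at P6. P15 female 3 had 8.12 and 116 CPM, and P15 male 1 had 6.38 and 116 CPM, the highest pair at P15. At 8 weeks males 4, 6 and 3 had 1.501, 1.37 and 1.22 CPM of stefins and 203, 206 and 135 CPM of neutrophil markers, the highest 3 of both. Other mice did not match in this way. P6 male 5 was second in stefins at 10.4 CPM with 29.2 CPM of neutrophil markers, P15 male 6 had 2.37 and 80.2 CPM, and 8-week male 2 had the lowest stefins of its age, 0.135 CPM, with 93.7 CPM of neutrophil markers. Ly6g and Elane of this list did not pass the filter. Without P6 male 4 the stefin sum at P6 was 8.26 ± 1.57 CPM (n = 9), above the 3.25 CPM at P15. The 2 stefins called lower over 2-fold for P15 against P6 were not called without that mouse, and likewise without P6 female 3, with all 35 mice, by DESeq2, with the replicate block and with each covariate. The part of neutrophils in the stefin levels was not tested.

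**Figure D4:**
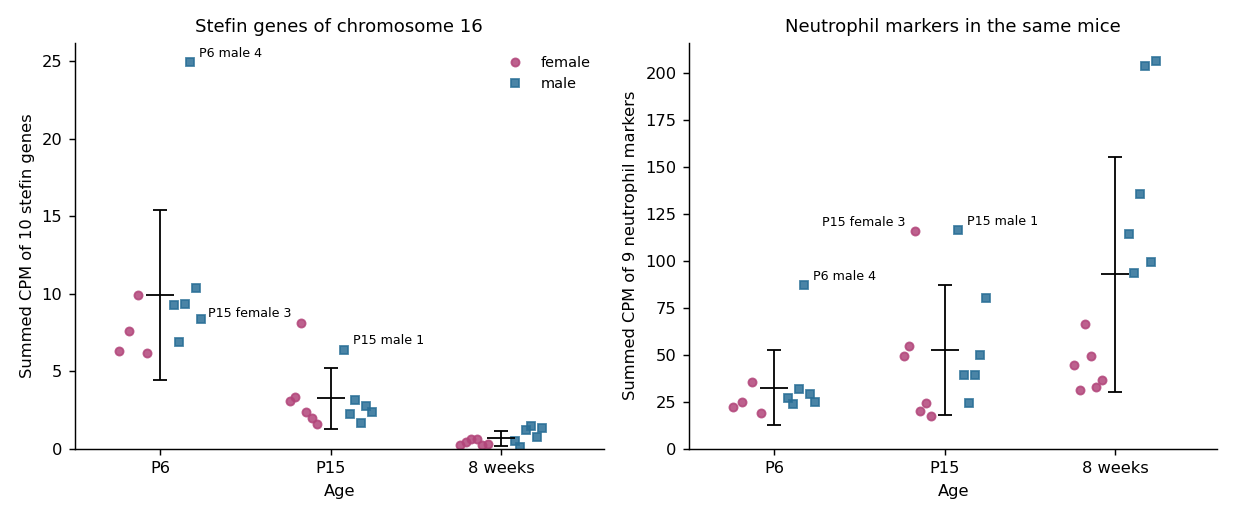
Summed CPM (y axes, from 0) of the 10 stefin genes of chromosome 16 on the left and of 9 neutrophil markers on the right, by age for 34 mice, with circles for females, squares for males and bars for mean and SD. The named mice, P6 male 4, P15 female 3 and P15 male 1, are the highest of their age in both panels, while at 8 weeks stefins have a mean of 0.669 CPM and neutrophil markers reach 206 CPM.

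Kng2, a kininogen and precursor of bradykinin, had 0 to 6 counts per mouse at P6 and 13 to 50 at 8 weeks. Its mean went from 0.0486 ± 0.0579 to 1.07 ± 0.323 CPM, and since it passed the filter through the later mice, this is given as a description. With the microglia covariate it was not called over 2-fold for 8 weeks against P6. Of the 10 genes in the chromosome 2 cluster, which spans 1.83 Mb, 7 had 3 counts or fewer in every mouse. Cst3 and Cst7 alone passed the filter there, and 1 further gene had more than 3 counts in some mouse without passing it.

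Other inhibitors of cathepsins were on a list of 3 genes. Between P6 and 8 weeks, 2 of the 3 were higher over 2-fold at 8 weeks and 0 lower (11.5% and 12.4% of all genes), and all 3 were higher by edgeR's glmQLFTest (37.8% of all genes). With neuron and progenitor or with microglia markers as a covariate, 0 were higher over 2-fold. Cd74, the MHC class II invariant chain, of which a segment of 1 isoform inhibits cathepsin L, rose from 117 ± 31.2 CPM at P6 to 316 ± 83.5 at 8 weeks (log2FC 1.47, SE 0.164, edgeR FDR = 1.82e-09). Ctla2b, related to cathepsin propeptides, had a log2FC of 2.53 (SE 0.264) from a mean of 0.418 CPM at P6, below the 0.5 CPM of the filter. It could pass the filter through the later mice, which favours a call of higher, so its values are a description. With at least 10 counts in every mouse, 1 of the 2 genes left to test was higher over 2-fold. Ctla2a was the gene below the 2-fold threshold in the main fit.

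Cst7 is widely used as a gene of activated microglia, and 17 further genes of that kind were listed. Between P6 and 8 weeks, 0 of the 17 were higher and 8 lower over 2-fold by edgeR, where 11.5% and 12.4% of all genes were. The median log2FC was -1.17, that of all genes 0.04, and 1 of the 17 was higher and 13 lower at an unadjusted p below 0.05, where 38.6% and 37.3% of all genes were. Cst7 was at -0.54 in the same comparison. The most abundant of the list were Apoe, Ccl3 and Cd9. Apoe, a lipid carrier, had a log2FC of -0.89 (SE 0.128), and the chemokine Ccl3 had -0.02 (SE 0.160) and the tetraspanin Cd9 had 0.16 (SE 0.0886), neither passing the test. For P15 against P6, 0 were higher and 7 lower over 2-fold by edgeR (4.87% and 4.85% of all genes), and 0 were higher and 14 lower at an unadjusted p below 0.05 (31.9% and 33.1% of all genes). The median was -1.28, that of all genes -0.01, and Cst7 was at -0.08 without and -0.70 to 0.31 with a marker covariate.

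Males and females were compared at each age, a contrast that played no part in the choice of genes. By edgeR's glmQLFTest 0 of the 3 filtered members passed an FDR of 0.05 at any age. Over all genes 0.0511% passed at P6, 0.0681% at P15 and 0.114% at 8 weeks. At an unadjusted p below 0.05, 2 members differed at P15, where 18.2% of all genes did, and none at P6 or 8 weeks, where 7.1% and 2.94% of all genes did.

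At P15 the Cst3 level of females was 5530 to 10064 CPM (median 8842, n = 6) and that of males 9402 to 13650 CPM (median 11058, n = 6). The sexes overlapped, and the log2FC of males against females was 0.43 (SE 0.176, 95% interval 0.08 to 0.79, edgeR FDR = 0.254). The log2FC was 0.22 (interval -0.18 to 0.62) at P6 and 0.14 (-0.22 to 0.50) at 8 weeks. Cst7 had a log2FC of 0.40 (SE 0.172, interval 0.05 to 0.75, edgeR FDR = 0.256) at P15, 0.02 (-0.37 to 0.41) at P6 and 0.30 (-0.05 to 0.66) at 8 weeks. Cstb had 0.15 (-0.16 to 0.46), 0.04 (-0.24 to 0.31) and 0.05 (-0.23 to 0.32) at P6, P15 and 8 weeks. Sex differences of Cstb above 0.46 log2 units in favour of males thus lay outside these intervals.

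The change of the sex difference with age was tested as an interaction. None of the 9 interactions of the 3 members passed an FDR of 0.05, and none had an unadjusted p below 0.05, compared with 20.4% of all genes for P15 against P6, 5.1% for 8 weeks against P6 and 3.41% for 8 weeks against P15. At the FDR, 0.0% of all genes passed in each. The lowest FDR was 0.396, for Cst7 between P6 and P15. DESeq2 and limma-voom also called none between sexes or as an interaction, and the lowest FDR over all alternatives was 0.179.

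**Figure D5:**
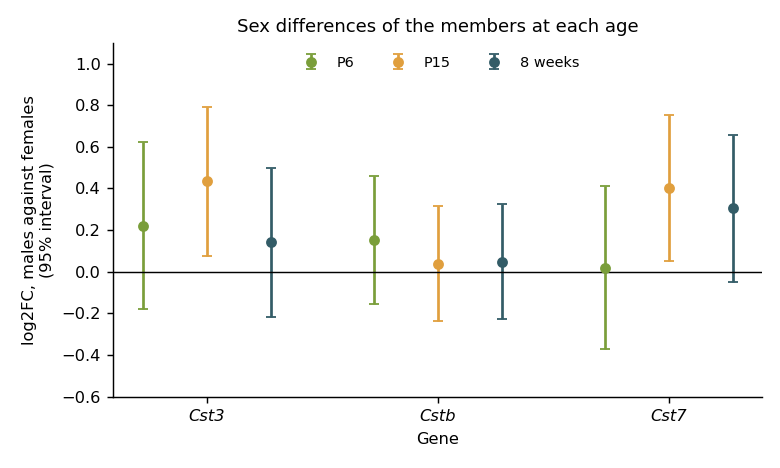
Points are the log2FC of males against females (y axis) with 95% intervals for Cst3, Cstb and Cst7 (x axis) at P6, P15 and 8 weeks. The intervals of Cst3 and Cst7 at P15, 0.08 to 0.79 and 0.05 to 0.75, lie above 0 and all others cross it, but no difference passed the FDR.

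The genes with the age profile most like each member were found among 10116 genes with a mean log2 CPM of at least 3. Likeness was the root mean square difference of log2 CPM over 34 mice after centring each gene on its mean, so a small value means near-parallel profiles. For Cst3 the nearest was H2-DMa, a peptide-loading subunit of MHC class II, at 0.120 log2 units. It was followed by the fructose transporter Slc2a5 at 0.172, Tmem173 (the DNA-sensing adaptor STING) at 0.178, the protease inhibitor Spint1 at 0.222 and Abi3 at 0.223. H2-DMa had mean log2 CPM of 4.64, 6.62 and 7.13 at P6, P15 and 8 weeks, where Cst3 had 11.2, 13.2 and 13.8.

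For Cstb the nearest were Lrrc59, an endoplasmic reticulum protein, at 0.151, the proteasome subunit Psmb6 at 0.165, Impdh2 of guanine nucleotide synthesis at 0.171, the translation factor Eif5a at 0.177 and Pa2g4 at 0.179. For Cst7 they were the biliverdin reductase Blvrb at 0.155, the ribosomal protein genes Rpl37a at 0.175 and Rpl35a at 0.179, Erp29 at 0.180 and Rab5c at 0.186. The 3 filtered members shared none of these neighbours, which follows from how far their own profiles differed and is no further result.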

How the data were processed

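Whole-brain CD45+ cells of 35 mice were sequenced, 1 library per mouse. The authors aligned reads to GRCm38/mm10 with STAR, counted fragments by strand with featureCounts and deposited raw counts per gene. The methods name fastp 0.20.0 for trimming in their passage on small RNA. The annotation release is not given in the sources used here. Names, lengths and coordinates were taken from GENCODE M21, and 260 of 55401 identifiers had no name there. Groups came from the labels, which name no batch. Counts were analysed with edgeR 4.0.16 in R 4.3.3 (limma 3.58.1 and DESeq2 1.42.0 as alternatives) and Python 3.11.15. Genes with 0.5 CPM in at least 5 of 34 mice were kept, scaled by TMM and fitted with glmQLFit (robust) on 6 age and sex means. Log2 CPM used a prior count of 2. Tests were two-sided, tested on simulated data, with Benjamini-Hochberg FDR over all genes. Among 81 pairs within groups, none were copies (lowest chi-square per gene 12.5). Floors cover counting error only, since PCR copies cannot be told from molecules. Promoter sequences were found for 2 of the 4 genes.

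The members and lists were chosen with earlier results of these data known. Named genes were the members, the listed cystatins, proteases (up to 12 with inhibitors given values) and inhibitors, the 5 most similar genes of each member, the 3 most abundant activation genes and the most abundant gene of a marker list. Genes ranked next to Cst3 were named after their values were seen. Alternatives covered mice, scaling, tool, filter, groups fitted, replicate block, covariates and gene length. Where single mice are said to be left out, these were each P6 female of the fit, P15 male 1, P6 male 4 and P15 female 3. Ranges over them do not cover the other mice. The astrocyte covariate, protein-coding ranks, other lengths for the ratio and leaving out P15 male 1, P6 male 4 or P15 female 3 were chosen after seeing the data.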

Additional observations from a re-analysis of the deposited data

Results flagged for a closer look

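Within groups of age and sex, a mouse was looked at again where its gap to the nearest mouse, divided by the range of the group, exceeded Dixon's critical value. Chance alone gives about 1 such mouse in 20 groups, and 5 were found among 48 combinations of a measure and a group. The summed CPM of the chromosome 16 stefins stood apart in P6 male 4 at 24.9, in P15 female 3 at 8.12 and in P15 male 1 at 6.38. The ratio of Cst3 to the summed proteases stood apart in P15 male 1 at 2.86, and so did the log2 difference of Cst3 and Ctss in that mouse, at 3.40. These last 2 share Cst3 and Ctss and are not independent. No member's own CPM stood apart in any group, and no sex difference of a member changed with age by the interaction test.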

How the results depend on the processing

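Age differences of the members kept their direction under the alternatives of scaling, tool, filter and mice, except Cst7 for P15 against P6, which was 0.0086 with all 35 mice and changed sign with the astrocyte covariate. Library size alone moved the median log2FC of all genes from -0.01 to -0.14 (P15 against P6) and from 0.04 to -0.10 (8 weeks against P6). With neuron and progenitor markers as a covariate, the log2FC of Cst3 was 1.74 (P15 against P6), 0.18 (8 weeks against P15) and 1.92 (8 weeks against P6), of Cst7 -0.38, -0.863 and -1.24, and of Cstb -0.52 and -1.78 in the last 2. With microglia markers, P15 against P6 and 8 weeks against P6 gave 1.38 and 1.88 for Cst3, -0.70 and -1.25 for Cst7, and -1.49 and -1.80 for Cstb. With astrocyte markers, chosen after seeing the data, they gave 0.31 and -0.18 for Cst7 and -0.79 and -1.05 for Cstb. The cause was not tested.

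Mice with the same number in the labels were little more alike than others, so no pairing was read from the numbers. Of 80 pairs with the same number in different groups, 27 correlated above 0.1 (median r 0.033, lowest -0.54). Of 400 pairs with different numbers, 118 did (median r -0.011, lowest -0.64). The replicate block gave Cst3 2.66 for 8 weeks against P6, turned Cst7 between sexes at P6 to -0.0302 and called 0 other cystatins lower over 2-fold for P15 against P6. It changed no other call of members or lists by over 1.5 times.

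Signs changed for Cst7 for P15 against P6 (above) and in the following differences. Cst7 between sexes at P6 was -0.0595 by library size and -0.0588 to 0.0694 on leaving out single mice, and Cstb at P15 was -0.0316 by library size. The Cstb interaction between P15 and 8 weeks was -0.00633 with all 35 mice, -0.0103 with DESeq2 size factors, -0.00905 by limma-voom, -0.0106 by DESeq2 and -0.00184 to 0.0115 on leaving out single mice.

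Ranks with the longest transcript as length were 9, 2 and 1 for Cst3 at P6, P15 and 8 weeks, 5881, 5985 and 7272 for Cst7, and 433, 1070 and 1274 for Cstb. By CPM, Cst3 ranked 17 at P6 and 1 at 8 weeks, Cst7 10074, 9947 and 10591, and Cstb 3010, 5602 and 6202. Among protein-coding genes Cst3 ranked 9, 1 and 1. The ratio of Cst3 to the proteases was 0.588, 2.004 and 2.447 with the longest transcript and 0.188, 0.785 and 1.04 from CPM.

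Without a fold threshold, calls of higher and lower were 6 and 4 proteases for P15 against P6, 6 and 2 for 8 weeks against P15, and 7 and 3 for 8 weeks against P6. They were 1 and 6 other cystatins for P15 against P6 and 1 and 5 for 8 weeks against P15, 2 other inhibitors higher in each of these, and of the activation genes 0 and 14 for P15 against P6, 7 and 7 for 8 weeks against P15 and 1 and 12 for 8 weeks against P6. For 8 weeks against P6 both the neuron and progenitor and the microglia covariates left 0 proteases higher, 2 lower and 0 other inhibitors higher. The microglia covariate gave 3 proteases lower for P15 against P6 and 0 other cystatins higher for P15 or 8 weeks against P6, and the astrocyte covariate 3 proteases higher for P15 against P6. All 35 mice gave 1 protease higher for P15 against P6, and leaving out single mice 0 to 1, with 1 without P15 male 1. The 2 other cystatins lower for P15 against P6 were 0 with all 35 mice, DESeq2, at least 10 counts in every mouse and each covariate, 1 without a filter, and 0 to 3 on leaving out single mice, with 0 without P6 male 4 or P6 female 3 and 1 without P6 female 5. At least 10 counts in every mouse left none of the other cystatins to test, so 0 calls in each comparison, and 1 other inhibitor higher for 8 weeks against P6. No filter gave 2 other cystatins higher for 8 weeks against P6, and the compared groups alone gave 2 lower for 8 weeks against P15. The 1 activation gene lower for 8 weeks against P15 was 0 with limma-voom, DESeq2 and the neuron and progenitor or microglia covariate, and 0 to 1 on leaving out single mice, with 0 without P15 male 1. Depth limits Cst6, Kng2 and the stefins, which are near 3 counts in many mice.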

Other observations

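At 8 weeks the summed CPM of the neutrophil markers was 93.7 to 206 in the 6 males (mean 142 ± 50.7) and 31.3 to 66.4 in the 6 females (mean 43.6 ± 13.2), without overlap. How many of all genes separate the sexes in this way was not counted, so nothing is read from the separation. The summed stefins were 0.135 to 1.501 CPM in males (mean 0.918 ± 0.536) and 0.247 to 0.643 CPM in females (mean 0.420 ± 0.181), which overlapped. By edgeR's glmQLFTest 0 of the 6 stefins tested passed an FDR of 0.05 between the sexes at that age, where 0.114% of all genes did. At an unadjusted p below 0.05, 2 were higher in males, Stfa1 (log2FC 3.72, SE 1.30) and Gm5483 (1.63, SE 0.679), both with few counts, where 2.94% of all genes differed in either direction. Stfa2 was at 1.33 (SE 1.14) and Stfa2l1 at 0.79 (SE 0.502), and BC100530 and Stfa3 had no counts. The sums themselves were not tested.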
